A study of Mus musculus with 23 samples.

Results

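The livers described here were divided by the level of Saa3, the gene of serum amyloid A3. All 23 arrays of the inhalation experiment, 1 array per mouse, were placed in classes chosen by the authors' log2 ratio of the single Saa3 feature: above 0.5 was called high Saa3 (6 mice) and below 0 low Saa3 (13 mice). The 4 mice between these limits entered no comparison. The question was which other transcripts differed between the classes when the inhaled exposure was taken into account in the model. Saa3 itself chose the mice, so its values are a description and were not tested.

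The mice were C57BL/6 females with no engineered allele named in the labels, aged 12 to 13 weeks by the labels. They inhaled filtered air, carbon black (CB, Printex 90) or diesel exhaust particles (DEP, a standard reference material of NIST), the particles at 20 mg/m3, for 90 min on consecutive days. Livers were taken 90 min after exposure by the labels, and the methods of the study give a shorter time and a younger age. All mice, those given filtered air included, were anaesthetised and bled from the heart, and a lung lavage followed. The methods of the study do not state when the liver was removed relative to these steps. Cy5-labelled liver RNA of each mouse was hybridised beside Cy3-labelled universal mouse reference RNA, which was the same material on all arrays, and the dyes were not swapped. Values are log2 ratios of liver over reference unless another scale is named. The RNA came from whole liver tissue, so fewer cells of a type and less RNA per cell cannot be told apart.

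The acute phase response is a change in the plasma proteins that the liver makes during inflammation or after injury. Interleukin-6 acts through gp130 and Janus kinases on the transcription factor STAT3, and SOCS3, itself a STAT3 target, shuts this signal off. Interleukin-1 and tumour necrosis factor act through NF-kB, and C/EBP factors bind many acute phase promoters. Serum amyloid A proteins associate with high-density lipoprotein. Lipocalin 2 binds bacterial iron carriers and is made both by hepatocytes in inflammation and by neutrophils, and Cxcl1 is a chemokine that attracts neutrophils.

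The high Saa3 class held 3 air mice (442, 443 and 53), 2 CB mice (445 and 835052) and 1 DEP mouse (444). The low class held 3 air, 6 CB and 4 DEP mice, and the mice between held 2 air and 2 DEP mice. The deposited Saa3 log2 ratio ran from 1.12 to 2.55 in the high class (median 1.90) and from −1.44 to −0.11 in the low class (median −0.85). Nearest to the upper limit lay air mouse 442 at 1.12 on one side and DEP mouse 835435 at 0.48 on the other. Nearest to the lower limit lay CB mouse 58 at −0.11 and air mouse 50 at 0.24. Class membership depended on the scale. In the loess ratios used here for the other genes, Saa3 was at 0.69 to 0.92 in the mice between the limits and at 0.19 in CB mouse 58. By the same limits, the former would be high and CB mouse 58 would lie between. The raw Cy5 signal of Saa3, in scanner units, was 8964 to 34364 in the high class and 755 to 3032 in the low class.

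The classes were not spread evenly over the work. Of the 3 rounds of exposure named by date in the labels, the first held 3 high and 1 low mice, the second 3 high and 8 low mice, and the third 0 high and 4 low mice. Array numbers fell into 5 sets, and the high mice lay in 3 of them, 2 mice in each, while the low mice lay in all 5. Array by array, median Cy5 signals lay between 241 and 473 in the high class and between 241 and 477 in the low class, and the share of features flagged absent in Cy5 was 22.4% to 46.6% and 22.6% to 41.7%. Precision is limited by how many mice each class holds.

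Of 18687 features tested with limma, 2 differed between the classes at an adjusted p under 0.05 (0.0107%), both higher in high Saa3. They were the features of Lcn2 and Cxcl1. At an unadjusted p under 0.05 there were 556 higher features (2.98%) and 362 lower features (1.94%), together 4.91% of those tested. The promoters of Saa3, Lcn2 and Cxcl1 are shown because Saa3 set the classes and the other transcripts were the ones that passed the test. Each line gives the 250 bases before the transcript start, 5′ to 3′ on the strand of the gene, from RefSeq annotation of build GRCm38.p6, with motif matches in capitals.
Saa3, chr7:46715677-46715926, minus strand: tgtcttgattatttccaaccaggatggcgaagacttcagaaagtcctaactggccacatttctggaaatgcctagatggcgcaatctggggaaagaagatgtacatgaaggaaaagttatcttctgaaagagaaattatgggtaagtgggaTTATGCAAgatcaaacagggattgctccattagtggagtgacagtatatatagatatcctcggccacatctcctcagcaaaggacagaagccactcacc
Lcn2, chr2:32387740-32387989, minus strand: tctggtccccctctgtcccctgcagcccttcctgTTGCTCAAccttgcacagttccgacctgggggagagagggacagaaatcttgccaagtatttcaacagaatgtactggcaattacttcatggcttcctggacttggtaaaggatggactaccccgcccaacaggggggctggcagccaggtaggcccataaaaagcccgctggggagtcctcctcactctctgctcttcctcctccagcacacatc
Cxcl1, chr5:90890995-90891244, plus strand: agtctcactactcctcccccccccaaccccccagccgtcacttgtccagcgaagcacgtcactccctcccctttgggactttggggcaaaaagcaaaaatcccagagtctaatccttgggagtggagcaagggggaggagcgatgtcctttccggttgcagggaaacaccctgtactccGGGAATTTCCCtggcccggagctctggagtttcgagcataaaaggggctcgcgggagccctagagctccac
Searched on both strands were the STAT motif TTCNNNGAA, the C/EBP motif TTGCNNAA and the NF-kB motif, and these were held by 7.18%, 9.55% and 3.75% of 27025 mouse promoters of the same length. The capitals mark a C/EBP match at bases −99 to −92 of Saa3, a C/EBP match at −216 to −209 of Lcn2, and 2 NF-kB matches of Cxcl1 that overlap from −71 to −61 and are the same site read on either strand. Of the other promoters searched, Socs3 held a STAT match at −154 to −146, Saa1 a C/EBP match at −182 to −175 and Saa2 a C/EBP match at −183 to −176, while no letters of these motifs were found in that of Stat3. A match describes letters in a window, and no binding was measured here.

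Lcn2 (NM_008491) encodes lipocalin 2. Its log2 ratio was 1.84 in the lowest high Saa3 mouse, 2.48 at the median and 2.67 in the highest (n = 6). In the low class it was 0.18, 0.78 and 1.83 (n = 13). The classes did not overlap, although the lowest high mouse (air 442) and the highest low mouse (CB 59) lay next to each other. The log2 difference was 1.50 (standard error 0.20, 95% interval 1.08 to 1.92, adjusted p = 0.00629 from limma). No other feature of the 18687 was higher in all 6 high mice than in all 13 low mice, a share of 0.00535% with Lcn2 counted, and 0 features (0%) were lower in all of them. Among so many features, 1 with this pattern can also arise from random order of the mice, and the number to expect was not computed.

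Cxcl1 (NM_008176) encodes the chemokine known as KC. Its log2 ratio was −1.01, 0.10 and 0.67 (lowest, median and highest) in the high class and −3.18, −1.83 and −0.43 in the low class. Here the classes overlapped through 1 high mouse, DEP 444, which lay below CB mice 58 and 835436 of the low class. The log2 difference was 1.75 (standard error 0.26, 95% interval 1.22 to 2.29, adjusted p = 0.0111 from limma). No Cy5 spot of Lcn2 or Cxcl1 was flagged absent or saturated in either class. In the Cy3 signal of the reference RNA alone, Lcn2 differed by 0.07 and Cxcl1 by −0.12 (adjusted p = 0.983 for each, limma).

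**Figure D1:**
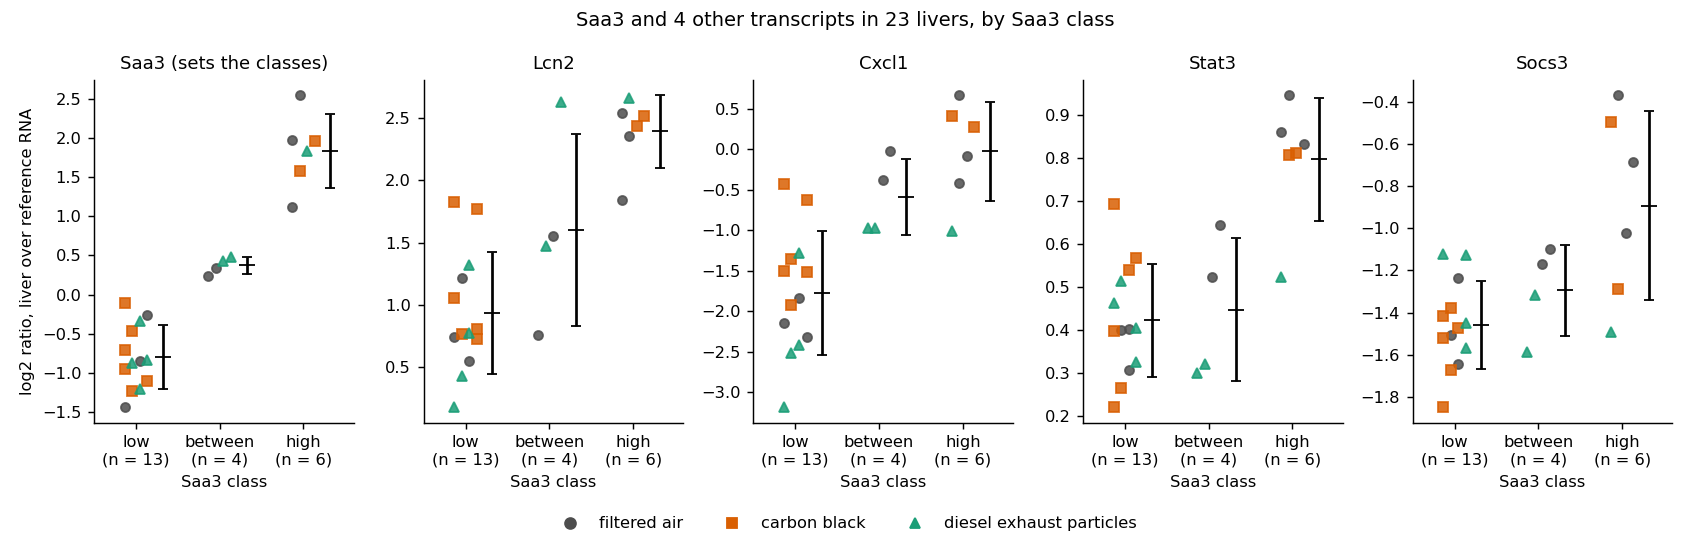
Log2 ratio of liver over reference RNA (vertical axes) of Saa3 and of 4 other transcripts in the low, between and high Saa3 classes, 1 point per mouse, with the exposure shown by colour and shape and the bar giving the mean ± SD. The Saa3 panel shows the deposited ratios that set the classes, Lcn2 alone has no overlap between low (0.18 to 1.83) and high mice (1.84 to 2.67), and DEP mouse 444 is the lowest high mouse for Cxcl1, Stat3 and Socs3.

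The mice between the limits were not part of the test. Their Lcn2 log2 ratios were 0.75 in air mouse 835433, 1.47 in DEP mouse 835435, 1.55 in air mouse 50 and 2.63 in DEP mouse 51. Their Cxcl1 log2 ratios were −0.02, −0.98, −0.38 and −0.97 in the same order. DEP mouse 51 thus had a Lcn2 ratio inside the range of the high class at a deposited Saa3 ratio of 0.43, and its Cxcl1 ratio was inside the range of both classes.

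The differences in Lcn2 and Cxcl1 had the same direction in each exposure group. For Lcn2 the log2 difference was 1.41 among air mice alone, 1.32 among CB mice and 1.99 among DEP mice, and in each of these groups every high mouse lay above every low mouse. For Cxcl1 it was 2.16, 1.57 and 1.34, again with no overlap within a group. Fitted in 1 exposure group at a time, neither passed the threshold (limma, adjusted p of 0.299 to 1.00 over both genes), and the DEP group holds only 1 high mouse, whose spread is then assumed to be that of the low mice.

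Over all features, 7 were higher (0.0375%) and 5 lower (0.0268%) in every high mouse than in every low mouse of its own exposure group. With 3 air, 2 CB and 1 DEP mice in the high class, random order alone can give this pattern. The number to expect from random order was not computed, so the pattern alone does not set these genes apart. The 7 were Lcn2, Cxcl1, Psme3, Hmox1, Stat3, Chgb and Dstn, and the 5 were features of Ap3b2, Tsc22d4, Asb11, Trim37 and Rbpj. Chgb, Dstn, Ap3b2, Tsc22d4 and Rbpj are named after their values were seen. For Chgb, Ap3b2 and Tsc22d4 a brighter feature of the same gene gave a log2 difference of 0.07, 0.06 and −0.09. The Cy5 spot of Asb11 was flagged absent on 5 of 6 high and 7 of 13 low arrays.

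**Figure D2:**
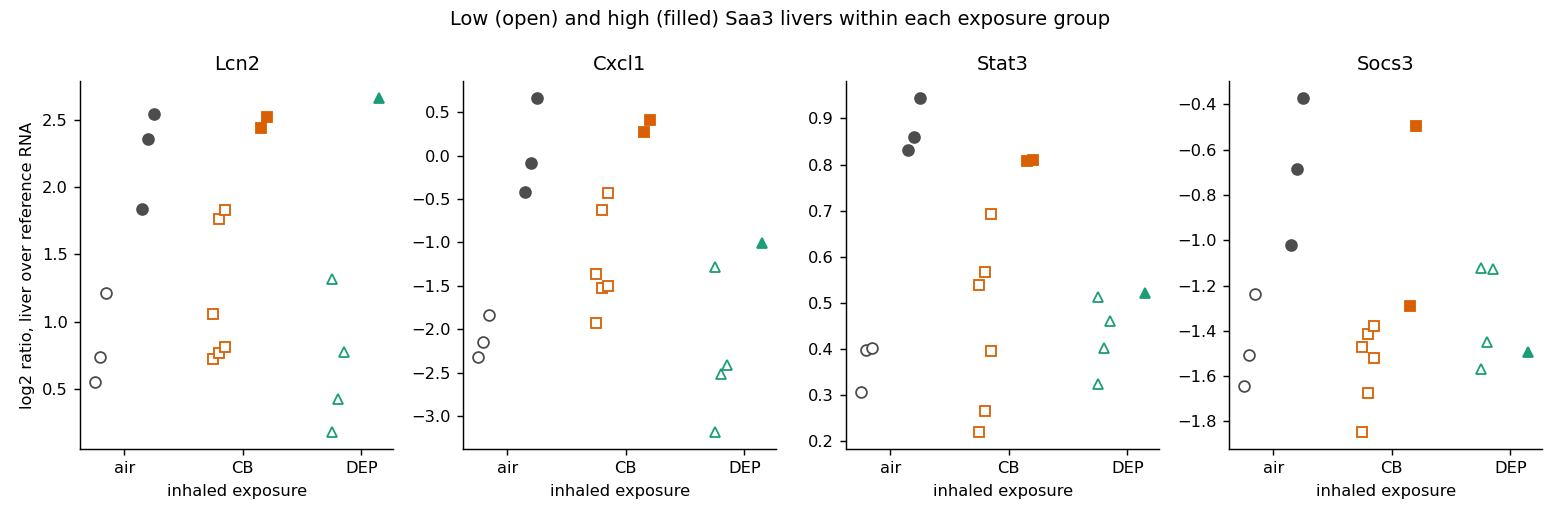
Log2 ratio of liver over reference RNA (vertical axes) of Lcn2, Cxcl1, Stat3 and Socs3 in air, CB and DEP mice, with open symbols for low and filled symbols for high Saa3 mice. Filled symbols lie above open ones in each exposure group for Lcn2 and Cxcl1. For Stat3 they do so too, but in the DEP group only barely (0.521 in mouse 444 against 0.512 in low mouse 835434). For Socs3 the high DEP mouse lies among the low DEP mice.

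The calls of Lcn2 and Cxcl1 depended on how rounds and arrays entered the model. With the round as a block, the log2 difference was 1.55 for Lcn2 (adjusted p = 0.0538, limma) and 1.95 for Cxcl1 (adjusted p = 0.0418). With the array set as a block it was 1.15 (adjusted p = 0.273) and 1.88 (adjusted p = 0.127). Within the second round alone, with 3 high and 8 low mice, it was 1.47 (adjusted p = 0.844) and 2.19 (adjusted p = 0.157), while the first round, with 1 low mouse, was not fitted alone and the third holds no high mouse. Without DEP mouse 444 the differences were 1.37 and 1.86 and neither passed (adjusted p = 0.0631 for each, limma). Without CB mouse 835052, Cxcl1 did not pass (1.77, adjusted p = 0.0585, limma) and Lcn2 did (1.52, adjusted p = 0.0342). In the Cy5 signal alone, Cxcl1 did not pass either (1.61, adjusted p = 0.186, limma), while Lcn2 did (1.38, adjusted p = 0.0117).

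Saa1 and Saa2, the other acute phase serum amyloid A genes, stood apart in a way that the ratio could not show. Their Cy5 spots were saturated, at the top of the scanner's scale (65535), on 6 of 6 high Saa3 arrays and on 0 of 13 low ones. Of all features tested these were the only 2 with this pattern, and 0 had the reverse. In the low class the Cy5 signal of Saa1 was 5583 at the lowest, 7184 at the median and 24022 at the highest, and that of Saa2 was 4948, 14271 and 32286. Among the mice between the limits, both spots were saturated in DEP mouse 51 alone.

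Scaled between arrays, the Cy5 signal of Saa1 was at least 6.08-fold and that of Saa2 at least 4.49-fold higher in the high class. The saturated spots were taken at their value. These folds are limits on the signal of the spots. The Cy3 signal of the same spots, quantile-normalized, was 4.59-fold and 5.34-fold higher. The liver signal alone, quantile-normalized and fitted with limma, called Saa1 and Saa2 (adjusted p = 0.00515 and 0.00651) and Lcn2, and no other feature. The fitted log2 differences of Saa1 and Saa2 on that other scaling, 2.71 and 2.23, are lower limits as well, since every high spot was saturated. Saturation also hides the spread between high mice (SD 0.06 for each gene, against 0.85 and 0.74 in the low class). The p-values of Saa1 and Saa2 therefore do not measure that spread. The ratios of the same spots were 3.45, 3.68 and 4.76 (lowest, median and highest) in the high class and 3.22, 3.59 and 4.15 in the low class for Saa1, which overlapped (0.18, adjusted p = 0.973, limma). For Saa2 they were 3.01, 3.58 and 4.39 against 3.44, 4.002 and 4.55 (−0.48, adjusted p = 0.966, limma).

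The reference channel of these spots moved too, although the reference RNA was the same on all arrays. The Cy3 signal of Saa1 was 2002, 3979 and 5724 (lowest, median and highest) in the high class and 460, 599 and 1538 in the low class. For Saa2 it was 2846, 4649 and 6812 against 302, 703 and 1762. Neither overlapped between the classes, and a limma fit of the Cy3 signal called exactly these 2 of 18687 features (0.0107%), with log2 differences of 2.31 and 2.51 (adjusted p = 0.000267 for each). At an unadjusted p under 0.05 that fit held 3.99% of the features. What made the reference signal follow the liver signal was not tested. Saa1 and Saa2 transcripts are closely alike and the probes may share signal.

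**Figure D3:**
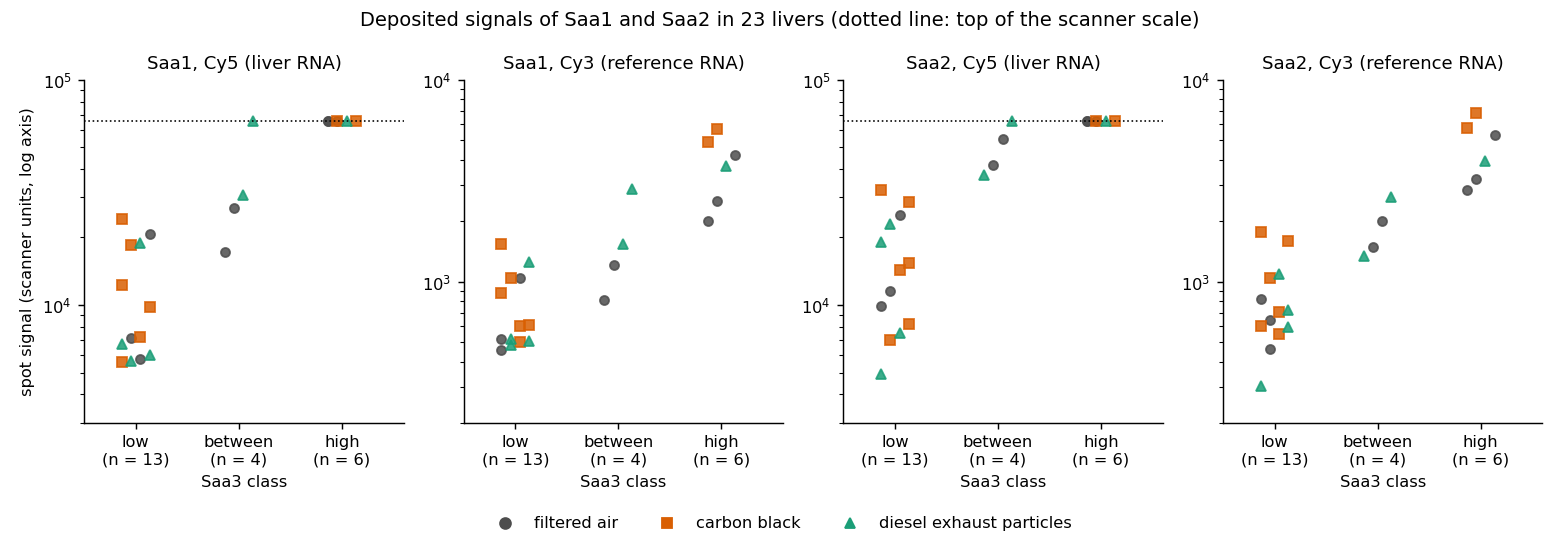
Deposited spot signals (vertical log axes, scanner units) of Saa1 and Saa2 in the liver (Cy5) and reference (Cy3) channels by Saa3 class, 1 point per mouse. All 6 high mice sit on the dotted line at 65535 in Cy5 while the low mice reach 24022 and 32286, and the Cy3 signals of the high mice also lie above all those of the low mice.

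Stat3 and Socs3, which stand for the interleukin-6 arm of the response, were not called. The Stat3 log2 ratio was 0.52, 0.82 and 0.94 (lowest, median and highest) in the high class and 0.22, 0.40 and 0.69 in the low class. The classes overlapped through DEP mouse 444, and the log2 difference was 0.36 (95% interval 0.19 to 0.54, adjusted p = 0.838, limma). By exposure group it was 0.51 in air, 0.36 in CB and 0.10 in DEP mice. The Socs3 log2 ratio was −1.49, −0.85 and −0.37 in the high class and −1.85, −1.47 and −1.12 in the low class, with a log2 difference of 0.53 (95% interval 0.21 to 0.84, adjusted p = 0.966, limma). It was 0.77 in air, 0.66 in CB and −0.18 in DEP mice, and the difference between exposure groups did not pass its own test (adjusted p = 0.999, limma).

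Among the other acute phase proteins, none passed the test apart from Lcn2. Of 26 measured genes of a list of positive acute phase proteins without Saa3, 3 were saturated on all 19 arrays and gave no value (Hp, haptoglobin, and the fibrinogen chains Fgb and Fgg). Of the remaining 23, 19 had a higher and 4 a lower ratio in the high class, with a median log2 difference of 0.18. A saturated Cy5 spot on at least 1 array was present for 8 of the 23. Among these was Saa1, saturated on 6 of 6 high arrays, whose ratio difference is that median. Under an unadjusted p of 0.05 lay 6 of the higher and 1 of the lower (the saturated Saa2). Over all 16845 genes with a value, 9020 (53.5%) had a higher ratio, the median was 0.01 and 4.96% lay under that p. Among other liver lists, the median was 0.19 for hepatocyte markers and 0.26 for complement and coagulation. It was −0.05 for cholesterol synthesis and −0.03 for fatty acid oxidation.

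The acute phase list held Lrg1, a secreted leucine-rich glycoprotein, with 3.66, 3.77 and 4.12 (lowest, median and highest) in the high class and 3.05, 3.48 and 3.77 in the low class, a difference of 0.32 (adjusted p = 0.966, limma). Its highest low mouse lay within the high range. The Cy5 spot of Lrg1 was saturated on 2 of 6 high and 0 of 13 low arrays. In the Cy5 signal alone the difference was 0.90 (adjusted p = 0.247, limma). The Cy3 signal of the reference differed by 0.48. The log2 difference was 0.39 for Saa4, which is made constitutively, 0.27 for the lipopolysaccharide-binding protein Lbp, 0.27 for Itih4 and 0.29 for Orm1, an orosomucoid. Apcs, which encodes serum amyloid P, had 0.17 (95% interval −0.25 to 0.60) and Hamp, the iron hormone hepcidin, 0.13 (−0.17 to 0.43, and −0.26 in the Cy5 signal alone). Crp had 0.40, Cp (ceruloplasmin) −0.04 and Serpina3n 0.07, all above the threshold. For the 7 negative acute phase proteins that were not saturated on every array, 3 were higher and 4 lower, with a median of −0.03, among them Ttr (transthyretin) at −0.11.

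Of 23 measured genes of interleukin-6 and STAT3 signalling, 19 had a higher ratio in the high class, with a median of 0.16 and none called. Under an unadjusted p of 0.05 lay 4 (17.4%, against 4.96% of all genes), namely Stat3, Socs3, Bcl3 (a nuclear protein of the I-kB family, 0.40) and Cebpd (C/EBP delta, 0.44). The receptor chains Il6ra and Il6st had 0.15 and 0.20, Jak1 and Jak2 had 0.05 and 0.15, and Il6 itself 0.25. Of 29 genes of the interleukin-1, tumour necrosis factor and NF-kB list, 19 were higher, with a median of 0.10 and none called. Its 4 members under an unadjusted p of 0.05 (13.8%) were Icam1, an adhesion molecule of leukocytes (0.44), the interleukin-1 receptor Il1r1 (0.47), Nfkbiz, which encodes I-kB zeta (0.39), and Birc3 (0.29). The NF-kB inhibitor Nfkbia had 0.00 and Tnfaip3, which encodes A20, 0.20.

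Icam1 was at 0.91, 1.31 and 1.73 (lowest, median and highest) in the high class and at 0.68, 0.94 and 1.29 in the low class (adjusted p = 0.949, limma). The classes overlapped over the lower part of the high range. Il1r1 was at 1.52, 1.78 and 2.46 against 0.98, 1.37 and 1.79 (adjusted p = 0.966, limma), and the classes overlapped here too.

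Of 26 chemokine ligands, 18 had a higher ratio, with a median of 0.09, and 1, Cxcl1, was called. Ccl6, a chemokine of myeloid cells, had 2.43, 2.96 and 3.43 in the high class and 0.25, 2.14 and 2.96 in the low class, a log2 difference of 1.18 (95% interval 0.45 to 1.91, adjusted p = 0.966, limma). The low mice were spread over a far wider range than the high mice. Cxcl13, which attracts B cells, had a difference of 0.55, Cxcl2 −0.09, Cxcl5 −0.04 and Ccl2 −0.25. None of these passed the test.

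Genes with the smallest p-values after Lcn2 and Cxcl1 did not pass the threshold either. Tifa, an adaptor of TRAF6 signalling to NF-kB, was at 1.10, 1.31 and 2.25 (lowest, median and highest) in the high class and at 0.38, 0.73 and 1.29 in the low class, a difference of 0.73 (adjusted p = 0.519, limma). Hmox1, the haem-degrading enzyme haem oxygenase 1, was at −0.99, −0.61 and −0.21 against −1.34, −1.10 and −0.70, a difference of 0.48 (adjusted p = 0.671, limma). Both overlapped at the edges of the classes. Psme3, a proteasome activator subunit, had a difference of 0.44 (adjusted p = 0.519, limma), and in the Cy5 signal alone 0.05.

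Further genes on the higher side were the lectin Clec2d (0.64), the uracil-DNA glycosylase Ung (0.69), Slfn2 of the schlafen family (0.36), Ttc17 (0.44), the sugar phosphate transporter Slc37a1 (0.35), the dickkopf receptor Kremen1 (0.44) and the calcium channel subunit Cacna1c (0.35). Their adjusted p-values from limma were 0.949 to 0.966. A second feature of Ttc17 had a difference of the opposite sign (−0.13). For Kremen1 the Cy5 signal alone gave −0.05, and the Cy3 signal of the reference differed by −0.47. On the lower side the smallest p belonged to Galnt14, an enzyme that starts O-linked glycosylation, at 0.02, 0.50 and 1.05 in the high class and 0.48, 1.20 and 1.95 in the low class, a difference of −0.79 (adjusted p = 0.949, limma). The classes overlapped, and its Cy5 spot was flagged absent on 3 of 6 high and 0 of 13 low arrays. Next came the natriuretic peptide receptor Npr1 (−0.38), Asb11 (−0.39), Cnot3 of the deadenylase complex (−0.41), the ubiquitin ligase Trim37 (−0.34), Serpinb10 (−0.37), the olfactory receptors Olfr397 (−0.60) and Olfr167 (−0.47), the granzyme Gzmm (−0.32) and Dmrtc2 (−0.56). None of them passed the test. Cy5 spots were flagged absent for Npr1 on 4 of 6 high and 6 of 13 low arrays, and for Asb11 on 5 and 7. For Cnot3 it was 3 and 3, and for Serpinb10 3 and 1. On the higher side it was 3 and 3 for Kremen1 and 0 and 7 for Cacna1c.

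**Figure D4:**
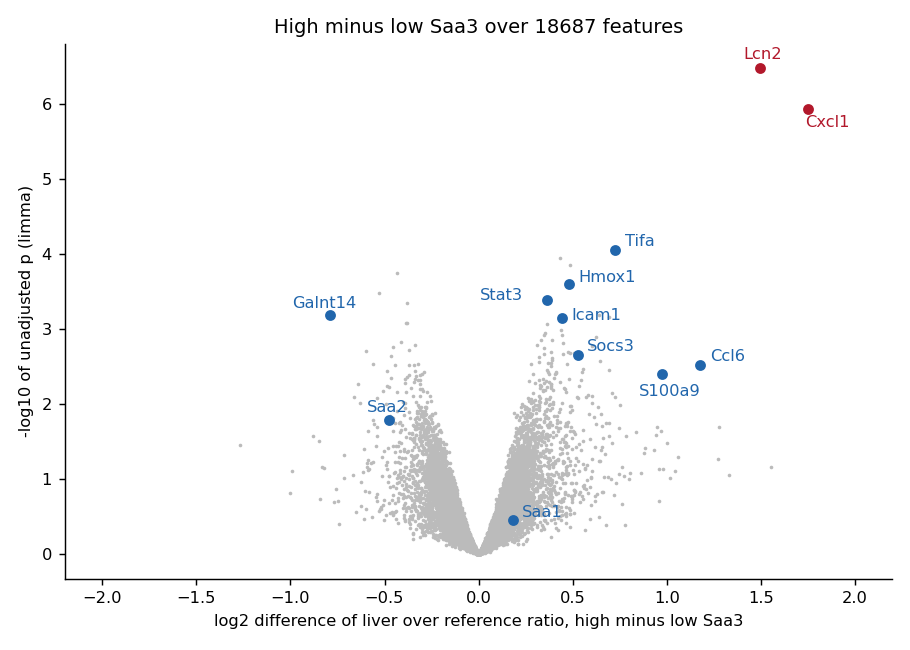
Log2 difference of the liver over reference ratio, high minus low Saa3 (horizontal axis), against −log10 of the unadjusted p from limma (vertical axis) for 18687 features, with called genes in red and other named genes in blue. Lcn2 (1.50) and Cxcl1 (1.75) lie apart from the rest, and the ratios of the saturated Saa1 (0.18) and Saa2 (−0.48) lie within the bulk.

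Neutrophils carry Lcn2 in their granules, so their other markers are given beside it. Of 16 neutrophil genes, Lcn2 included, 7 had a higher and 9 a lower ratio, with a median log2 difference of −0.01. The mean log2 ratio over the list was 0.03 to 0.37 in the high class and −0.12 to 0.24 in the low class. Lcn2 is part of this mean, which therefore holds the called difference of Lcn2 itself and does not describe the other markers alone. S100a9, a subunit of calprotectin, was at 1.56, 2.17 and 3.96 (lowest, median and highest) against 0.68, 1.23 and 2.47, a difference of 0.97 (adjusted p = 0.966, limma), while its partner S100a8 had 0.31. The granule genes Mpo, Elane, Ltf, Camp and Ngp had −0.29, −0.17, −0.05, −0.16 and 0.14, and the chemokine receptor Cxcr2 0.00. The Cy5 spot of Mpo was flagged absent on 4 of 6 high and 6 of 13 low arrays. The part of neutrophils in the Lcn2 difference was not tested.

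For macrophages, 9 of 16 markers had a higher and 7 a lower ratio, with a median of 0.10. The mean log2 ratio of the list was 1.29 to 1.99 in the high class and 1.25 to 1.998 in the low class. The complement C1q chains C1qa and C1qc had 0.41 and 0.71, and 0.20 and 0.47 in the Cy5 signal alone. The Kupffer cell gene Clec4f had 0.05 and Adgre1, which encodes F4/80, 0.30. None of these was called, and all of these named markers lay on the higher side. Of 12 hepatocyte markers with a value, 9 were higher, with a median of 0.19, and their mean log2 ratio of 3.53 to 4.79 over both classes marks the tissue as liver. Lymphocyte markers had a median of 0.06, endothelial markers −0.02, stellate cell and fibroblast markers −0.04, cholangiocyte markers 0.00, pancreatic acinar markers 0.02 and erythroid markers 0.05. All 6 platelet markers were lower, with a median of −0.14, and none lay under an unadjusted p of 0.05.

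Several lists of other liver functions had a higher median in the high class. Of 30 complement and coagulation genes with a value, 25 had a higher ratio, with a median of 0.26, and 7 lay under an unadjusted p of 0.05 (23.3%, against 4.96% of all genes), among them the complement factors C8g (0.62), C2 (0.49) and Cfi (0.32). In the Cy5 signal alone these had −0.18, 0.28 and 0.04, and the Cy3 signal of the reference differed by −0.59 for C8g. Of the 30 genes, 12 had a saturated Cy5 spot on at least 1 array, Cfi on 4 of 6 high and 8 of 13 low arrays. The ratio of a saturated spot does not give the full liver signal. Of 21 genes of bile acid synthesis and nuclear receptors 20 were higher (median 0.13), of 44 genes of cytochrome P450 and drug handling 32 (0.13), and of 28 interferon-stimulated genes 20 (0.07). Of the 44 genes of cytochrome P450 and drug handling, 19 had a saturated Cy5 spot on at least 1 array. Genes of gluconeogenesis and fasting had a median of 0.15 and glucocorticoid response genes 0.13. Endoplasmic reticulum chaperones (8 of 23 higher, median −0.03), cholesterol synthesis (9 of 19, −0.05) and proteasome subunits (11 of 22, −0.01) were not on that side. No member of these lists passed the test.

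**Figure D5:**
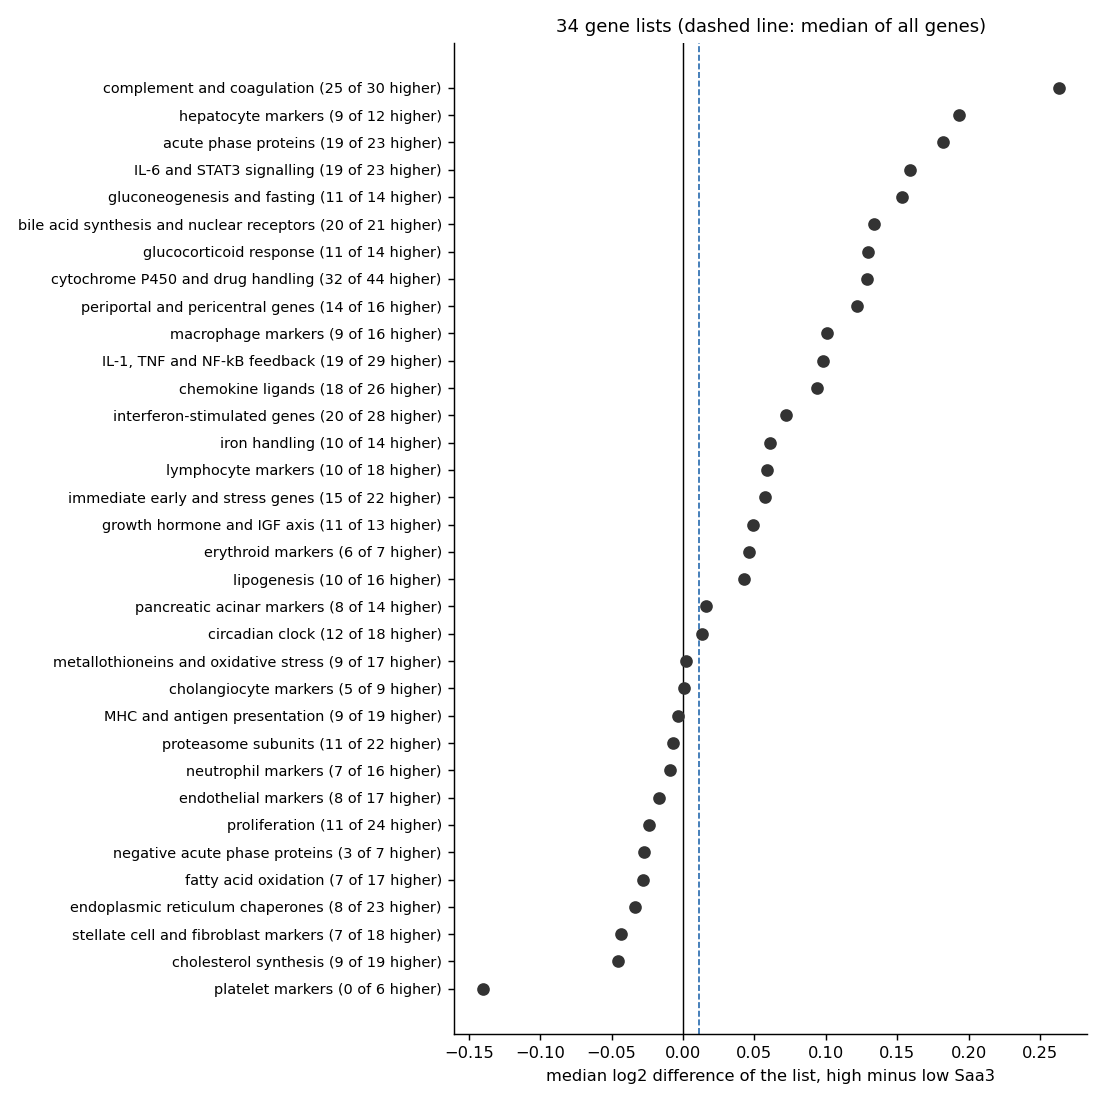
Median log2 difference of the liver over reference ratio, high minus low Saa3 (horizontal axis), of 34 gene lists, each labelled with the number of its genes that had a higher ratio among those with a value. Complement and coagulation lies highest at 0.26 and platelet markers lowest at −0.14, and the dashed line marks the median of all genes at 0.01.

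A test of whether the difference between high and low Saa3 itself differed between the exposure groups called 2 of 18687 features (0.0107%), with 3.34% under an unadjusted p of 0.05. The DEP group holds 1 high mouse, so both calls rested on DEP mouse 444 and show no difference between exposure groups beyond that mouse. They were singled out after their values were seen. Entpd3, an enzyme that breaks down extracellular nucleotides, was at 4.90 in this mouse and at −0.74 to 0.08 in the other 22 mice. Gprasp1, a protein that sorts G protein-coupled receptors, was at 1.33 in this mouse and at −1.51 to −0.61 in the other 22.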

How the data were processed

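Liver RNA of 23 mice was measured on 2-colour oligonucleotide arrays. The authors deposited the linear intensity of each spot in both channels, without background subtraction, flags of absent spots, and log2 ratios normalized by lowess within each array in R 2.4.1, as the submitters' processing notes and methods give it. The deposited log2 ratio of Saa3 set the classes.

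Loess within each array turned the deposited intensities into the log2 ratios used here (limma 3.58.1, R 4.3.3) over 18688 of 22575 features with a listed gene in the platform annotation. The other 3887 features were left out, since control spots among them could not be told from genes, and 30 features that list several genes were left unnamed. Of 18658 features with 1 gene, 18469 matched a current RefSeq gene. Linear models of limma (lmFit, eBayes) had the Saa3 class and the exposure group as terms, over the 19 mice of the high and low classes, with Benjamini-Hochberg adjustment over the 18687 features other than Saa3 and a threshold of 0.05. The code was checked on simulated data. A spot was taken as saturated at 65535. A bound for a gene saturated on every high array compares mean log2 Cy5 signals after loess and Aquantile scaling.

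One feature, the brightest, stood for each gene. Named were the 14 higher and 10 lower genes first by call and then by smallest p, the marker genes, 7 acute phase genes and up to 3 members of each of 34 lists under an unadjusted p of 0.05. Hp and Fgb, saturated on all arrays, are named without a value. The members and lists were chosen with earlier results of these data known. Lists were not tested as sets.

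Alternatives were the deposited ratios, median centring, Aquantile, Cy5 without the reference, normexp (offset 50) before loess, filters on absent or saturated spots, round or array set as a block, day as a random block, the second round alone, no exposure term, each exposure group alone, array weights, Saa3 as a continuous covariate, a wider gap between classes (above 1 and below −0.5), classes from the loess ratio, a threshold of 0.1, the average over the features of each gene in place of the brightest, and the omission of 1 mouse at a time.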

Additional observations from a re-analysis of the deposited data

Results flagged for a closer look

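In the high Saa3 class, 58 genes were examined for a mouse that stood far from the other 5, and 11 had one, where chance flags about 5%. At the low end were Lcn2 in air mouse 442 (1.84, the others 2.36 to 2.67), Stat3 in DEP mouse 444 (0.52, the others 0.81 to 0.94) and Cfi in air mouse 53 (7.13). CB mouse 835052 was the lowest for C1qa (4.56), Apob (4.66) and Cyp1a2 (3.36). At the high end were Tifa (2.25) and S100a9 (3.96) in CB mouse 445, Kremen1 in air mouse 442 (−0.090), Olfr167 in air mouse 53 (0.92) and Cxcl13 in DEP mouse 444 (1.68).

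The test of whether high and low Saa3 differed unequally between exposure groups passed for Entpd3 (adjusted p = 6.00e-08, limma) and Gprasp1 (adjusted p = 0.00375, limma). The high DEP mice are 1 animal, mouse 444, so these p-values mark that outlying mouse and not a difference between exposures.

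The reference channel carried a difference between the classes in Saa1 (2.31 on the log2 scale of the Cy3 signal) and Saa2 (2.51) of the same spots, although 1 reference RNA was used on all arrays. The cause was not tested.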

How the results depend on the processing

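The count of 2 called features fell to 1 with median centring (Lcn2), the round as a block (Cxcl1), no exposure term (Lcn2), Saa3 as a continuous covariate (Lcn2) and DEP mice alone (Entpd3). It fell to 0 with the array set as a block, in the second round alone, in air or CB mice alone and with the wider gap. Leaving out 1 mouse gave 0 to 2. The 0 without DEP mouse 444 stands beside 803 features under an unadjusted p of 0.05, and the 1 without CB mouse 835052 beside 966. With the array set as a block 986 features lay under an unadjusted p of 0.05, in the second round 1047, in air mice 407, in CB mice 1065, in DEP mice 475 and with the wider gap 694. With median centring it was 2026, at a median log2 difference of all features of −0.071. The causes of these changes were not tested, though the second round, each exposure group alone and the wider gap use fewer mice. The count was 2 or 3 under all the other alternatives, and Aquantile leaves the ratios as they were by construction. The count of 3 came with the Cy5 signal alone and held Lcn2, Saa1 and Saa2, without Cxcl1.

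Of 1088 values of 58 genes under 19 alternatives, 1049 kept direction and side of the threshold, 17 fell below it, 1 rose past it and 21 changed sign. In DEP mice alone the differences of Ung, Slc37a1, Socs3, Nfil3, Bcl3, Mt2 and Hamp became −0.028, −0.0083, −0.18, −0.16, −0.067, −0.048 and −0.037. With the Cy5 signal alone those of Kremen1, C8g, Hbb-b2, Cyp2c29, Cyp1a2 and Hamp became −0.046, −0.18, −0.15, −0.082, −0.22 and −0.26, and that of Saa2, saturated on every high array, became at least 2.23. In air mice alone Mcm6 became 0.061 and Apcs −0.25. Saa1 became −0.081 with the deposited ratios and −0.35 in CB mice alone. With median centring Hamp became −0.10 and Apcs −0.059, and in the second round alone Apcs became −0.057. Leaving out 1 mouse, 1098 of 1102 values were kept, 3 fell below the threshold and Apcs, which ranged from −0.0072 to 0.333, changed sign without DEP mouse 444. List medians with the mean of all features moved by less than the spread between mice. No paired analysis was possible because the mouse numbers are not shared between groups.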

Other observations

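Some transcripts outside the acute phase had a wider range in the low class, which also holds more mice, and no called difference. Sult1d1, a sulfotransferase, was at 5.81 to 7.20 (median 6.14) in the high class and at 1.89 to 6.87 (median 5.62) in the low class, a log2 difference of 1.28 (adjusted p = 0.966, limma). Gadd45g, a growth arrest gene, was at 1.05 to 2.28 against −1.04 to 2.26, a difference of 0.95 (adjusted p = 0.966, limma). The brightest feature of Apob, the structural protein of very-low-density lipoprotein, was at 4.66 to 6.46 against 1.77 to 5.66, a difference of 0.97 (adjusted p = 0.966, limma), but 3 other features of the gene had differences of only 0.07 to 0.33, and the same feature had 0.06 in the Cy5 signal alone and 0.39 in the second round. The spreads themselves were not tested.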
